A study of Rattus norvegicus with 4 samples.

Results

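The UDP-glucuronosyltransferases (UGT), glutathione S-transferases (GST) and sulfotransferases (SULT) are the main conjugating enzymes of the liver. They join glucuronic acid, glutathione or sulfate to drugs, steroids, bilirubin, bile acids and products of lipid oxidation, which makes these compounds more soluble in water and ready for export in bile or urine. UGT enzymes and the microsomal GST sit in the membrane of the endoplasmic reticulum, most other GST and the SULT are soluble, and each enzyme draws on its own activated donor. The members described here are all array probes whose symbol in the platform annotation begins with Ugt1, Ugt2, Ugt3, Gsta, Gstk, Gstm, Gsto, Gstp, Gstt, Mgst or Sult. There were 52 such probes among 33849 gene probes, 12 for UGT, 21 for GST and 19 for SULT, and no probe began with Ugt3.

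Livers of male OLETF (Otsuka Long-Evans Tokushima Fatty) rats, which overeat and become obese and diabetic, were measured, all from animals on standard chow. One group had 0.2% thiamine (2 g per L) in its drinking water for 51 weeks from the age of 4 weeks, and the untreated group had water with 0% thiamine. Every rat was killed when 55 weeks old, following a fast of 16 h, with 8 rats per group in the study, of which 2 per group were measured, each on its own 1-colour CodeLink array with no pooling. The 4 animals are called thiamine rats 1 and 2 and untreated rats 1 and 2, with cage mates not given in the sources used here. A probe was kept if its spot was not flagged as near background or masked on both arrays of at least 1 group.

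After this filter 42 of the 52 member probes remained, of 18664 kept probes in all. They give 34 genes by name (6 UGT, 20 GST and 8 SULT), each read from its brightest kept probe, and 5 further probes that the annotation assigns to several members at once. The arrays held between 18176 and 20071 gene probes above background, and between 1.49% and 7.49% of their gene spots were flagged as contaminated. Of 14 listed hepatocyte markers 13 were measured, among them albumin (Alb), the main plasma protein made by the liver, at a log2 level of 15.27 and 15.30 in thiamine rats 1 and 2 and 15.15 and 15.36 in untreated rats 1 and 2. Levels are normalized log2 intensities, on which a step of 1 is a doubling, and levels of different probes cannot be set against each other.

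The members differed little between the groups, and no difference passed the test. limma with Benjamini-Hochberg adjustment over all kept probes called 0 of the 42 member probes and 0 of all 18664 (0%), and the smallest adjusted p of a member was 0.44. Ugt2b1 alone among the 34 member genes had an unadjusted p under 0.05 (limma), in the higher direction, whereas 6.89% of all 8989 measured genes did, 3.83% higher and 3.06% lower. By sign alone 23 of 34 genes were at a higher mean with thiamine and 11 at a lower one, where 50.6% of all genes were higher and 49.4% lower. The groups did not overlap for 8 of the 34 genes (23.5%), 7 higher and 1 lower, which is below the 37.5% of all genes (18.5% higher and 19% lower). The median difference, thiamine less untreated, was 0.10 over the 34 genes and 0.004 over all genes.

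The precision that these 4 arrays gave is shown by the 95% interval of each gene. These intervals are not adjusted for the number of probes tested, so they are not limits of detection for the adjusted test. Computed with limma's moderated SE, each interval reached between 0.39 and 0.99 (log2) to either side of its gene's difference, with a median reach of 0.43 over the 34 genes. The interval lay wholly inside a 2-fold change either way (a log2 difference between -1 and 1) for 32 of the 34 genes. The exceptions were Ugt2b1, with bounds at 0.26 and 1.39, and Gstm7, with bounds at -0.73 and 1.25. Among the 32, Gstm1 and Gsta2 had saturated spots, so their intervals are those of capped values and cannot place a change within 2-fold. The interval of Ugt2b1 was the only one of the 34 that did not include 0, though the gene was not called by the adjusted test.

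**Figure D1:**
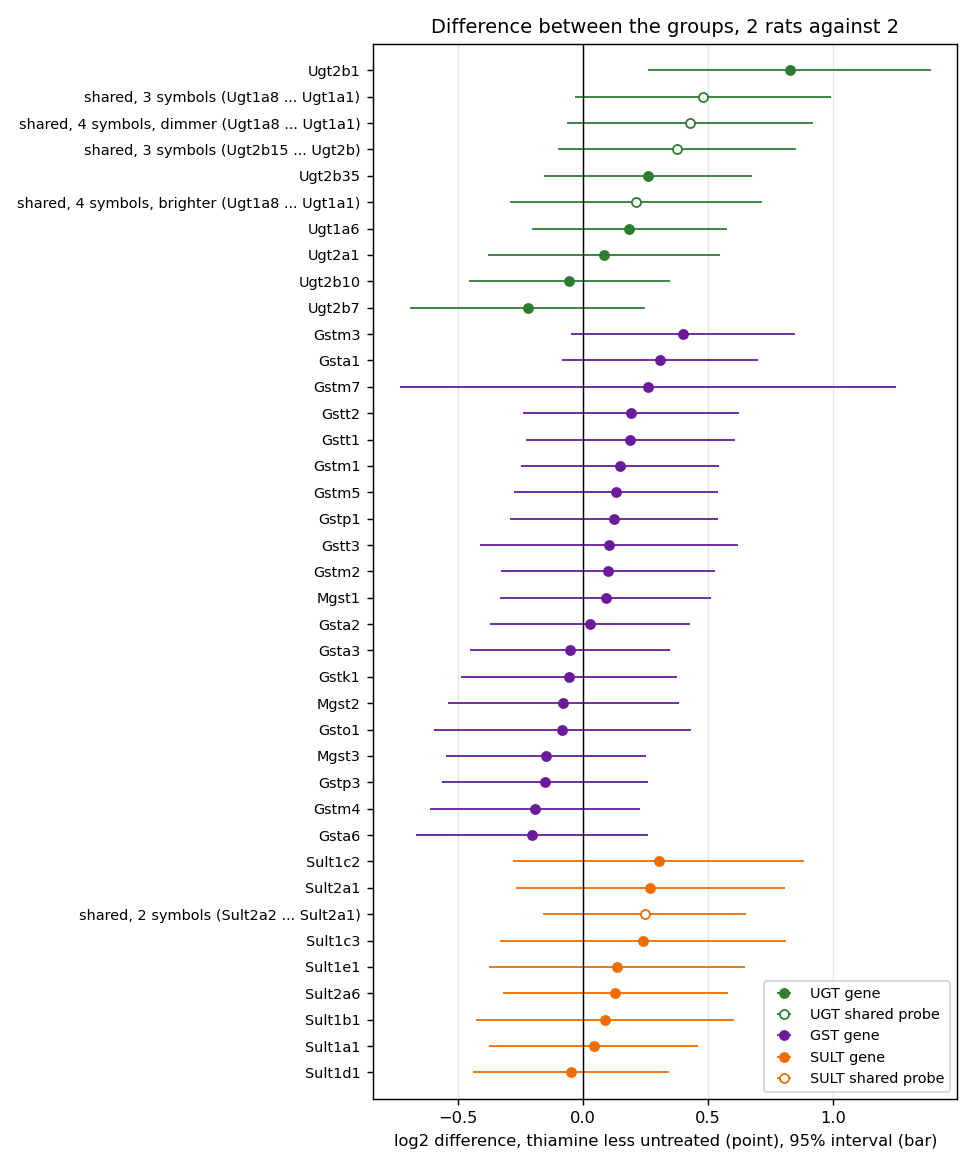
Log2 difference between the group means (points, thiamine less untreated, 2 rats per group) with its 95% interval (bars, from limma's moderated SE) for the 34 member genes and the 5 probes that several members share (open points). Ugt2b1, at 0.83, is the 1 gene whose bar stays clear of 0, and Gstm7 has the widest bar. Gstm1 and Gsta2 had saturated spots, so their points and bars are those of capped values.

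Among the UGT, Ugt2b1 was the member furthest apart. It encodes a rat liver enzyme that conjugates steroids such as testosterone and many drugs. Its level was 11.95 in thiamine rat 1, 12.18 in thiamine rat 2, 10.82 in untreated rat 1 and 11.65 in untreated rat 2. Both thiamine livers were thus above both untreated ones, but untreated rat 1 lay further from untreated rat 2 than untreated rat 2 lay from either thiamine rat. The background-subtracted scanner intensities showed the same order, at 4208 and 4757 in the thiamine rats and 1612 and 3042 in the untreated rats. The difference was 0.83 ± 0.26 (log2, moderated SE, n = 2 per group; adjusted p = 0.44 by limma), or 1.77-fold. Leaving out untreated rat 1 gave 0.41 (adjusted p = 0.547 by limma) and leaving out untreated rat 2 gave 1.24 (adjusted p = 0.105), so that its size rests on which untreated liver is taken. Its adjusted p ran from 0.0764 with a replicate block to 1 when thiamine rat 2 was left out, over all the settings tried.

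The other UGT2 genes gave smaller values, in both directions. The level of Ugt2b35 was 10.42 and 10.73 in the thiamine rats and 10.29 and 10.34 in the untreated rats, a difference of 0.26 ± 0.19 with no overlap. Leaving out thiamine rat 2 gave 0.10, and leaving out thiamine rat 1 gave 0.42. Ugt2a1, first known from the olfactory epithelium, was at 10.23 and 10.73 against 10.48 and 10.31, with both untreated rats between the thiamine rats. Ugt2b10 was at 10.37 and 10.29 against 10.48 and 10.29, the smallest difference in this family at -0.05 ± 0.18. Ugt2b7 was dim: it was above background in both untreated rats, at 7.89 and 7.63, and in thiamine rat 1, at 7.78, but flagged as near background in thiamine rat 2, at 7.29.

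Part of the UGT2B cluster was read by a probe that the annotation gives to Ugt2b15, Ugt2b37 and Ugt2b together, so it cannot be credited to any of them. Its level was 13.89 and 14.03 in the thiamine rats, 13.30 in untreated rat 1 and 13.87 in untreated rat 2. As for Ugt2b1, the low value was that of untreated rat 1, while untreated rat 2 was within 0.03 of thiamine rat 1. The difference was 0.38 ± 0.22, and it became 0.09 when untreated rat 1 was left out and 0.66 when untreated rat 2 was. A probe for Ugt2b alone was above background in thiamine rat 2 only and was not kept.

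The UGT2B genes lie in 1 cluster of the rat genome, and stretches before their starts are shown here as a description. Whether the genes of the cluster differed from each other in their response was not tested. The following lines hold the 100 bases before the annotated transcript start (GRCr8, plus strand, positions -100 to -1, sequences from RefSeq) for the member furthest apart and for others of the cluster that were read by a probe of their own. Capitals mark the letters AAGTTATANNTT, where N is any base, searched on both strands. It is the 12-base window of Ugt2b1 with the most bases kept (10 of 12) across the UGT2 promoters, a search made after the sequences were seen.
Ugt2b1, chr14:21378782-21378881: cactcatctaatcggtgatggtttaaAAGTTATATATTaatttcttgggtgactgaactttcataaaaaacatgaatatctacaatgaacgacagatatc
Ugt2b35, chr14:21208341-21208440: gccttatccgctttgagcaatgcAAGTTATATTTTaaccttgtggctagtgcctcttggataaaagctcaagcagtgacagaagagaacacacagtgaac
Ugt2b7, chr14:21251435-21251534: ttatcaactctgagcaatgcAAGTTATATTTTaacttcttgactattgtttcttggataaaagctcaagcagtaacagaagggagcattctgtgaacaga
Ugt2b10, chr14:21462741-21462840: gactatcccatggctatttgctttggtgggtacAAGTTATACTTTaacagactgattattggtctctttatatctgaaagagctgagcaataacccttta

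The marked letters occurred in all 7 UGT2 promoters that the RefSeq table holds (Ugt2b, Ugt2b1, Ugt2b7, Ugt2b10, Ugt2b15, Ugt2b35 and Ugt2b37), in 1 other promoter among the 40 member symbols found there, that of Gsta6, and in 0.0657% of all 33469 promoters; every window searched was 300 bases long, from 250 before to 50 after the start. Since the stretch was chosen from the UGT2 promoters, its presence in all 7 is no finding. In these it began between positions -80 and -56. Ugt2b35 and Ugt2b7 had 81 of 97 compared bases in common (83.5%, best match without gaps at a shift of at most 10 bases). Ugt2b1 shared 38.1% with Ugt2b35, 40.4% with Ugt2b7 and 35.5% with Ugt2b10. Such values were not particular to Ugt2b1, as Ugt2b10 shared 37.2% with Ugt2b7 and 50% with Ugt2b35. The presence of the stretch before both Ugt2b1 (difference 0.83) and Ugt2b10 (difference -0.05) was fixed by how it was chosen. Any part of the stretch in these values was not tested. A match of letters is a description of these windows and not a measured binding site.

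The UGT1 isoforms, made from alternative first exons joined to exons they have in common, were read mostly by probes that cannot tell them apart. They include the enzyme that conjugates bilirubin, Ugt1a1. A probe for Ugt1a6 alone, whose enzyme handles small planar phenols, gave 12.74 and 12.76 in the thiamine rats and 12.55 and 12.59 in the untreated rats. Rats of the same group lay within 0.04 of each other, and the groups did not overlap, at a difference of 0.19 ± 0.18 (95% interval from -0.20 to 0.58). Its within-group SD was 0.02, and 98.6% of all measured genes had a larger one. The spot of thiamine rat 1 was flagged as contaminated; leaving out any 1 array gave values between 0.17 and 0.20.

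The shared UGT1 probes repeated the low value of untreated rat 1. The probe listed for Ugt1a8, Ugt1a6 and Ugt1a1 was at 9.81 and 10.40 in the thiamine rats, 9.43 in untreated rat 1 and 9.82 in untreated rat 2, a difference of 0.48 ± 0.23. Of the probes listed for these and Ugt1a7c, the dimmer one was at 9.11, 9.42, 8.56 and 9.12 in the same order and the brighter one at 13.13, 13.30, 12.68 and 13.33. In each of the 3, untreated rat 2 was level with or above thiamine rat 1, so the groups overlapped. Without untreated rat 1 the differences were 0.29 for the first probe, 0.15 for the dimmer and -0.12 for the brighter of the others, and without untreated rat 2 they were 0.67, 0.70 and 0.54. A probe for Ugt1a7c alone was near background on all 4 arrays.

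The places of the rats were also counted over all 10 kept UGT probes. Untreated rat 1 had the lowest value for 7 of the 10 probes and thiamine rat 2 the highest for 7 of the 10, where untreated rat 1 was lowest for 29.7% and thiamine rat 2 highest for 25.3% of all kept probes with 4 values. Over the 6 UGT genes alone, untreated rat 1 was lowest for 3 and highest for 2, against 29.6% and 30.7% of all genes. Thiamine rat 2 was highest for 4 of these genes and lowest for 2, against 23.6% and 22.9%. The pattern over the 10 probes was noticed after the values were seen, several of them read the same transcripts, and it was not tested. The median difference of the 6 UGT genes was 0.135, with 4 higher and 2 lower and 3 of 6 without overlap, all of these higher. Of all genes 37.5% did not overlap, and 18.5% were higher without overlap. This median went to 0.266 when thiamine rat 1 was left out and to 0.0637 when thiamine rat 2 was. Ugt2b7, lower with thiamine, was kept only through the untreated rats, and without it the median was 0.186 over 5 genes. With the 4 shared probes included, an alternative added once the values were known, it was 0.235 over 10 probes.

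**Figure D2:**
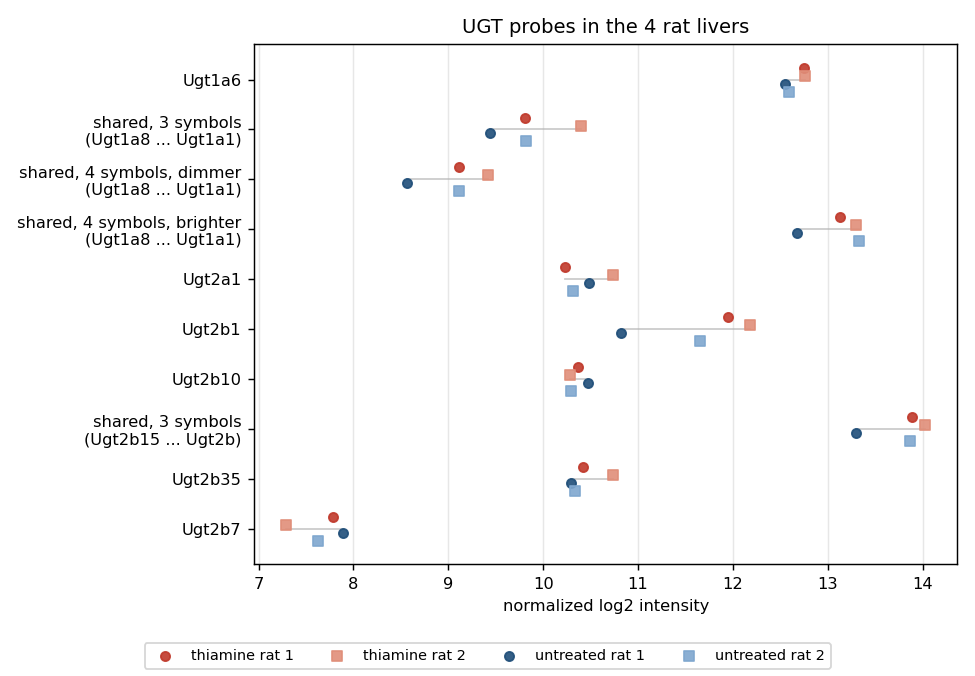
Normalized log2 intensity of the 10 kept UGT probes in each rat liver (red, thiamine; blue, untreated; circles, rat 1; squares, rat 2; the grey line spans the 4 values). Untreated rat 1 lies furthest left in 7 of 10 rows, most clearly for Ugt2b1 and the shared probes.

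The alpha class of GST, abundant in hepatocytes and active on lipid peroxides, had 2 genes at a higher and 2 at a lower mean with thiamine. Gsta1 was at 13.13 and 13.14 in the thiamine rats and 12.88 and 12.77 in the untreated rats. The groups were separate, and the rats of a group lay within 0.11 of each other. The difference was 0.31 ± 0.18 (adjusted p = 0.82 by limma), and it stayed between 0.25 and 0.36 when 1 array was left out. Gsta2 was very bright, at 14.99 and 14.79 against 14.87 and 14.86, with a contaminated spot in untreated rat 1 and a saturated one in untreated rat 2. The saturated spot makes the untreated mean a lower limit, so the measured difference of 0.03 ± 0.18 (-0.04 with median scaling) is an upper limit. Gsta3 was at -0.05 ± 0.18 and Gsta6 at -0.21 ± 0.21, the latter 0.06 without thiamine rat 2.

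The mu class, whose members handle epoxides and quinones among other compounds, held the most variable member of all. Gstm7 was at 10.99 in thiamine rat 1, 11.96 in thiamine rat 2, 12.05 in untreated rat 1 and 10.38 in untreated rat 2. One rat of each group was high and the other low, so that the groups overlapped entirely, and no spot carried a flag. Its within-group SD of 0.96 was exceeded by 0.167% of all measured genes, and the median over all genes was 0.16. The difference between the groups was 0.26 ± 0.45, but 1.09 if untreated rat 1 was left out and -0.57 if untreated rat 2 was.

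The other mu genes varied far less. Gstm3 was at 10.30 and 10.49 with thiamine and 9.78 and 10.21 without, a difference of 0.40 ± 0.20 with no overlap (adjusted p = 0.79 by limma). Leaving out untreated rat 1 gave 0.18 and leaving out untreated rat 2 gave 0.61, the same untreated liver being low as for Ugt2b1. Gstm1, a major GST of the liver, was saturated on both thiamine arrays and on that of untreated rat 1, at 14.94 and 14.97 against 14.89 and 14.72, so both group means are capped and neither a fold nor a bound is given. The difference of the capped values, 0.15, became 0.04 with median scaling, 0.23 if untreated rat 1 was dropped and 0.06 if untreated rat 2 was. Gstm5 was at 0.13 ± 0.18, Gstm2 at 0.10 ± 0.19 and Gstm4 at -0.19 ± 0.19. Dropping untreated rat 2 took Gstm5 to 0.0051 and dropping untreated rat 1 took Gstm4 to -0.03. The Gstm6l probe was near background on all 4 arrays. Probes of this class may not tell near copies apart.

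In the pi class, Gstp1 encodes the placental form, known in the rat as a marker of early neoplastic foci in liver. It was at 11.79 and 11.59 with thiamine and 11.69 and 11.45 without, the values of the groups alternating, and its difference was 0.12 ± 0.19, which ran from 0.0019 to 0.24 with 1 array left out, the lowest without untreated rat 2. Its neighbour Gstp3 was at 13.38 and 13.27 against 13.35 and 13.60, a difference of -0.15 ± 0.19 that ran from -0.28 to -0.02. The theta class was at a higher mean with thiamine for each of its 3 measured genes, without separation of the rats. Leaving out 1 array moved each of them by over 1.5 times, Gstt1 to between 0.07 and 0.30, Gstt2 to between 0.0045 and 0.38 and Gstt3 to between -0.19 and 0.40. Gstt1, known for conjugating small halogenated compounds, was at 0.19 ± 0.19, Gstt2 at 0.19 ± 0.20 and Gstt3 at 0.10 ± 0.24. Gstt3 differed more within the groups, at 14.67 and 14.08 in the thiamine rats and 14.48 and 14.06 in the untreated rats.

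The remaining GST were near level. Gstk1, the mitochondrial and peroxisomal form, was at 9.27 and 9.54 against 9.32 and 9.60, a difference of -0.05 ± 0.20. Gsto1, which also reduces dehydroascorbate, was at 8.98 and 8.83 against 9.34 and 8.64. The spot of untreated rat 1 was flagged as contaminated, and with it set to missing the difference of Gsto1 went from -0.08 to 0.26. Of the microsomal members, Mgst1 was at 0.09 ± 0.19 and Mgst2 at -0.08 ± 0.21. Mgst3 was the 1 member gene lower with thiamine without overlap, at 11.76 and 11.69 against 11.78 and 11.96, where thiamine rat 1 and untreated rat 1 were 0.02 apart and the difference was -0.15 ± 0.18, or -0.05 if untreated rat 2 was left out. Over all 20 GST genes 12 were higher and 8 lower with thiamine, 5 of 20 did not overlap (4 higher, 1 lower; 37.5% of all genes did not), and the median difference was 0.095. Leaving out thiamine rat 1, thiamine rat 2 or untreated rat 2 brought this median to 0.00356, 0.0504 or 0.0334, and median scaling to 0.0452.

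Among the SULT, no gene had groups that did not overlap (0 of 8, against 37.5% of all genes). Sult1a1, the main phenol sulfotransferase, was at 12.11 and 12.43 with thiamine and 12.20 and 12.26 without, with both untreated rats between the thiamine rats. The difference was 0.04 ± 0.19 (95% interval from -0.38 to 0.46). Sult1e1, which inactivates estrogens, was at 13.57 and 14.16 against 13.54 and 13.92, so that each group had a low and a high rat, and its difference was 0.14 ± 0.23. Its probe is listed under a pair of gene identifiers with the same symbol. Sult1b1, which acts on thyroid hormones and phenols, was at 9.21 and 9.35 against 8.84 and 9.54, a difference of 0.09 that became 0.44 if untreated rat 2 was left out and -0.26 if untreated rat 1 was.

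Untreated rat 2 was lowest for 3 of the 8 SULT genes (25.8% of all genes), and thiamine rat 1 was lowest for 3 others (21.7% of all genes). The 3 genes lowest in untreated rat 2 are described here, picked after their values were seen. Sult1c3, which in the rat sulfates N-hydroxy arylamines, was at 13.65 in both thiamine rats, 13.85 in untreated rat 1 and 12.96 in untreated rat 2. A further Sult1c3 probe gave 12.22, 12.54, 12.42 and 11.71 in the same order, so that both probes placed untreated rat 2 lowest. The brighter Sult1c2 probe read 9.05, 8.54, 8.87 and 8.11, and Sult2a1, which sulfates steroids and bile acids, read 11.53, 11.72, 11.74 and 10.98. The differences of Sult1c3, Sult1c2 and Sult2a1 were 0.24 ± 0.26, 0.30 ± 0.26 and 0.27 ± 0.24. Without untreated rat 1 they were 0.69, 0.68 and 0.65, and without untreated rat 2 they were -0.20, -0.08 and -0.11. For these genes untreated rat 1 was thus level with the thiamine livers, the reverse of its place for Ugt2b1.

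The other sulfotransferases showed little difference or were dim. The hydroxysteroid enzyme Sult2a6 was at 12.40 and 12.86 against 12.56 and 12.43, a difference of 0.13 ± 0.20 that was 0.36 with the contaminated spot of thiamine rat 1 set to missing. The probe that Sult2a2 and Sult2a1 share was at 8.80 and 8.74 against 8.40 and 8.64, without overlap and with the low value in untreated rat 1, unlike the Sult2a1 probe. The probes of Sult1d1 disagreed in sign, at -0.05 ± 0.18 and 0.06 ± 0.18. Sult2a2, Sult5a1, a further Sult1d1 probe, a Sult4a1 probe and a probe listed for Sult1c2 and Sult1c2a were near background on all 4 arrays. Sult2b1 was above background in thiamine rat 1 and untreated rat 2, and another Sult4a1 probe in thiamine rat 1 alone. The median difference of the 8 SULT genes was 0.133, with 7 higher and 1 lower. Leaving out thiamine rat 2 turned it to -0.0379, and leaving out untreated rat 2 brought it to 0.00366.

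**Figure D3:**
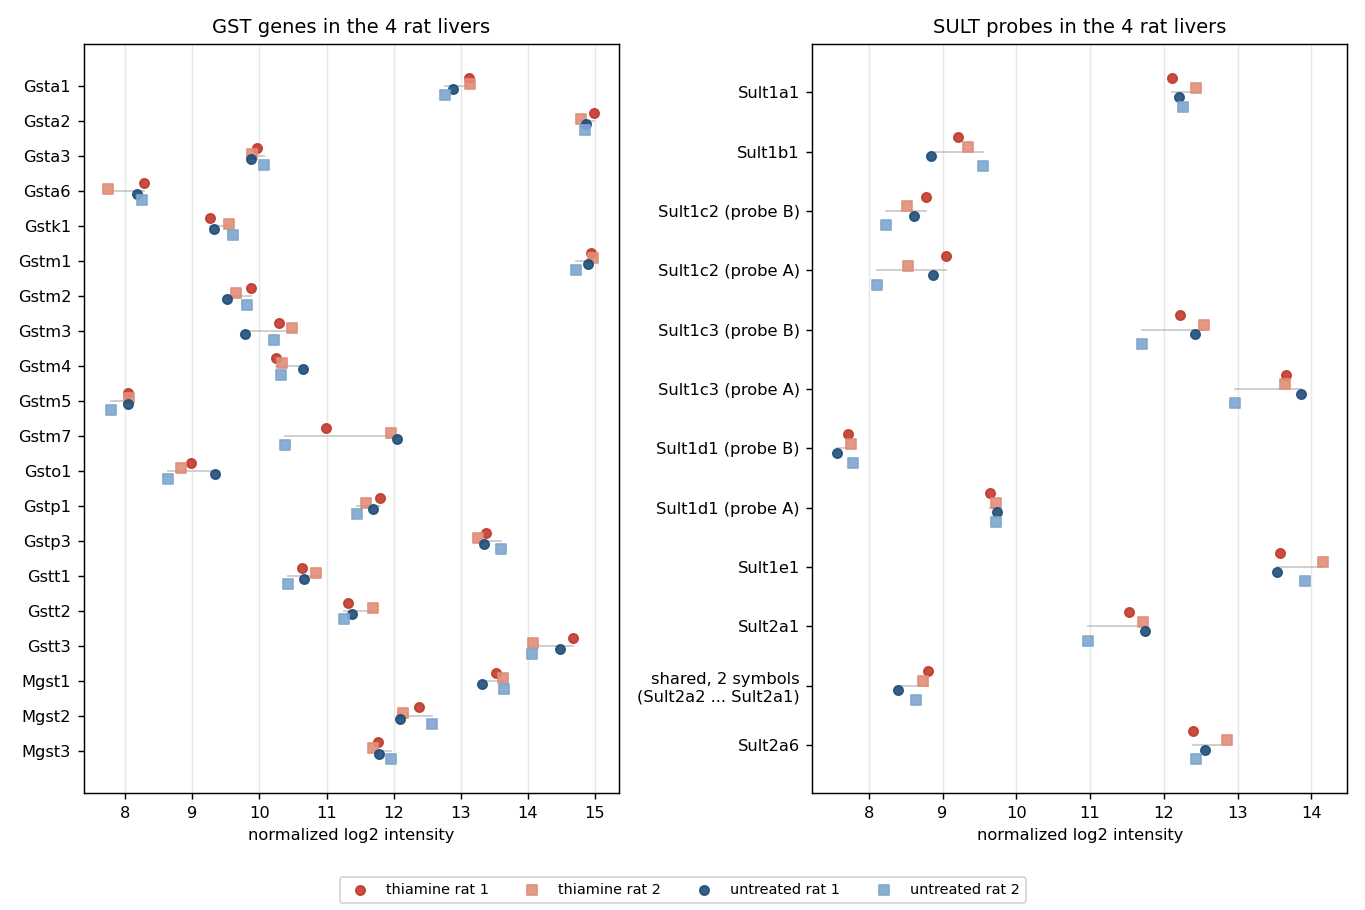
Normalized log2 intensity of the 20 GST genes (left) and 12 kept SULT probes (right; A is the brighter probe of a gene) in each rat liver, colours and symbols as in the plot of UGT levels. Gstm7 has 1 high and 1 low rat in each group, and Sult1c3, Sult1c2 and Sult2a1 lie lowest in untreated rat 2.

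**Figure D4:**
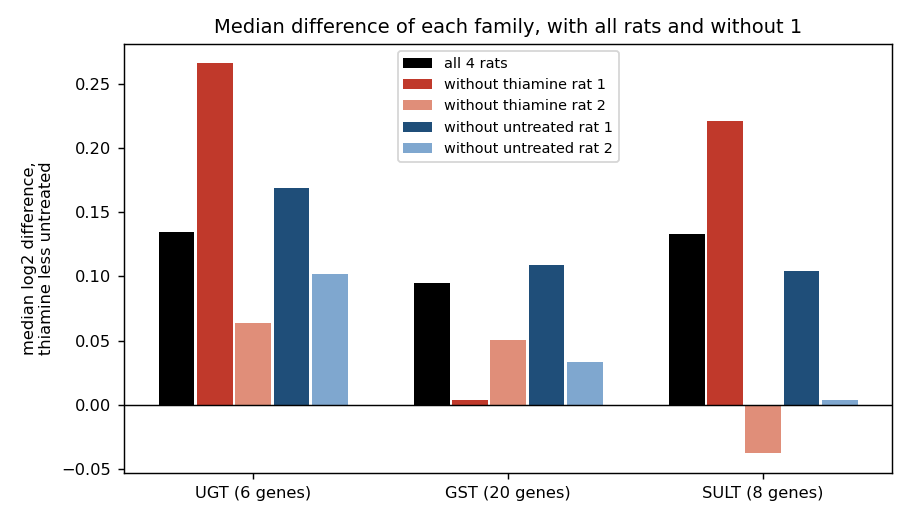
Median log2 difference (thiamine less untreated) of the UGT, GST and SULT genes with all 4 rats (black) and without each rat in turn (colours). The SULT median lies at -0.0379 when thiamine rat 2 is left out, and the GST median at 0.00356 when thiamine rat 1 is.

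The genes that make the donors of conjugation went both ways, and none passed the test over all probes. For UDP-glucuronic acid 3 of 7 measured genes were higher and 4 lower: the UDP-glucose pyrophosphorylase Ugp2 was at 11.83 and 11.88 with thiamine against 11.61 and 10.98 without (0.56 ± 0.22), the phosphoglucomutase Pgm1 at -0.50 ± 0.18 and the nucleotide sugar carrier Slc35b1 at -0.63 ± 0.20. Ugdh, which oxidizes UDP-glucose to the glucuronic acid donor itself, was at 0.06 ± 0.21. Of these 7, Ugp2 (higher) and Pgm1 and Slc35b1 (lower) had an unadjusted p under 0.05 (limma), against 6.89% of all genes. For glutathione supply and breakdown 7 of 14 were higher and 7 lower, with the glutathione synthetase Gss at -0.44 ± 0.18 and Cth, which makes cysteine, at -0.54 ± 0.18, and both of these were under that p. For sulfate supply 5 of 12 were higher and 7 lower and 0 of 12 reached an unadjusted p under 0.05; the PAPS synthases Papss1 and Papss2, which make the sulfate donor, were at -0.01 ± 0.19 and -0.06 ± 0.19.

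Regulators and carriers of the pathway were measured as well. Of 20 transcription factors listed for these genes 11 were higher and 9 lower, with 2 higher at an unadjusted p under 0.05 (limma), Maff and Nr1i3, against 3.83% of all genes. Nr1i3, the drug-sensing receptor CAR, was at 11.39 and 11.70 with thiamine and 11.11 and 11.09 without (0.44 ± 0.19, adjusted p = 0.70), and Nr1i2, the receptor PXR, at 10.78 and 11.22 against 10.70 and 10.58 (0.35 ± 0.20, adjusted p = 0.82). Both receptors were above the untreated livers in both thiamine rats, as were Maff (0.70 ± 0.19, adjusted p = 0.33) and Foxa2 (0.44 ± 0.23). The groups did not overlap for 6 of the 20 factors (30%), 5 higher and 1 lower, where 37.5% of all genes did not overlap. The lower one was Nr1h4, at -0.30 ± 0.20. Nfe2l2, the oxidant-sensing factor NRF2, was at -0.10 ± 0.18. Of 18 measured NRF2 target genes outside these families 11 were higher and 7 lower (median difference 0.07), none at an unadjusted p under 0.05 (limma). Those with the smallest p were Gclm (0.38 ± 0.21), Aox1 (0.31 ± 0.20) and Txnrd1 (0.24 ± 0.19), and Nqo1 was at -0.02 ± 0.19. The groups did not overlap for 5 of the 18, 4 higher and 1 lower, against 37.5% of all genes. Of 17 carriers that export or take up conjugates 7 were higher and 10 lower, again none under that p, with the canalicular exporter Abcc2 at 0.09 ± 0.20. The smallest p among them were those of Abcc1 (-0.35 ± 0.19), Abcb1b (0.29 ± 0.18) and Abcb11 (0.26 ± 0.18).

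Among 19 measured enzymes of other conjugations 14 were higher and 5 lower (median difference 0.18), and at an unadjusted p under 0.05 (limma) 3 were higher and 1 lower, where the shares of all genes were 3.83% and 3.06%. The methyltransferases Inmt and Nnmt were at 1.30 ± 0.31 and 0.49 ± 0.20, Mettl7a at 0.78 ± 0.19 and the epoxide hydrolase Ephx2 at -0.56 ± 0.21. Of 7 genes listed for the removal of conjugates 4 were higher and 3 lower, with the steroid sulfatase Sts at 0.42 ± 0.18 and the beta-glucuronidase Gusb at -0.12 ± 0.18. The list also held the ester hydrolase Nceh1, at 0.93 ± 0.19, and the acetyltransferase Hgsnat, at -0.07 ± 0.18. Neither of these removes the conjugates described here. Nceh1 and Sts, 2 of the 7, were higher at an unadjusted p under 0.05 (limma), where 3.83% of all genes were. The groups did not overlap for 3 of the 7, 2 higher and 1 lower, against 37.5% of all genes. The smallest adjusted p (limma) of any gene on these lists was 0.216, that of Nceh1.

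Among markers of other cells, none passed the test (smallest adjusted p 0.307 by limma), and the lists for Kupffer cells and endothelium leaned to higher values with thiamine. Hepatocyte markers were balanced, 6 of 13 higher and 7 lower (median difference -0.01). Their summed linear intensity was 247530 and 266950 in the thiamine rats and 253940 and 246390 in the untreated rats. The brightest of them, such as Alb, lay above the levels at which Gstm1 spots were saturated. Their values may be capped as well, so near-equal sums can hide a difference. All 9 measured of 14 listed Kupffer cell markers were at a higher mean with thiamine, with a median of 0.62, and their sum was 29062 and 20203 against 19734 and 12800. Of these 9, 6 were higher at an unadjusted p under 0.05 (limma), where 3.83% of all genes were. So were 2 of 8 endothelial and 2 of 13 hepatocyte markers. The groups did not overlap for 6 of the 9, all higher, against 18.5% of all genes. Of 8 measured endothelial markers 7 were higher (median difference 0.27), with sums of 6554 and 5854 against 4763 and 4610. The median difference was 0.02 for 5 stellate cell markers, 0.25 for 6 lymphocyte markers, 0.15 for 3 erythroid and -0.11 for 2 neutrophil markers. Of 10 cholangiocyte markers 2 were measured, and 6 had probes that were not kept, among them Sox9 and Spp1. In bulk tissue fewer cells of a type and less RNA per cell cannot be told apart, and the part of these markers in the values of the conjugating enzymes was not tested.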

How the data were processed

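The deposited files are 4 CodeLink reports, 1 per liver, and a value table of the series. Per the file headers, the reports come from CodeLink Expression Analysis 5.0.0.31312 and give intensity on a linear scale: spot mean, local background median and their difference. The deposited value table also holds intensity values, which keep the order of the scanner values on each array; its scale and centring are not given in the sources used here.

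Background was corrected with normexp (offset 50) over 35129 features. The 1280 control features were left out, and log2 values of 33849 gene probes were quantile normalized. The comparison of the groups used lmFit and eBayes (limma 3.58.1, R 4.3.3; two-sided, Benjamini-Hochberg over 18664 kept probes, threshold 0.05), and moderation raised the degrees of freedom from 2 to 10.8. The fit was tested on simulated data. The number of arrays limits the precision. Each p-value and SE rests on a moderated variance, drawn partly from the spread between these 4 rats and partly from all kept probes. For Ugt1a6 the within-group SD was 0.02 while the moderated SE was 0.18.

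Symbols came from the platform annotation, checked against RefSeq's GRCr8 gene table. Of the probes 16756 had 1 symbol, 162 several and 16564 none. Another 367 were named by accession, and 12 with conflicting names were left out. Probes with several symbols were not read as a gene, and counted as member probes if the first symbol began with a listed prefix. Of 46 member symbols 40 had a RefSeq promoter.

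The members and gene lists were chosen with earlier results of these data known. Every member could be named; values per rat were given for genes with an unadjusted p under 0.05 or at least 0.5 apart without overlap, the 3 brightest of each family, a saturated member and others that show how the rats differ, the last chosen after their values were seen. From the other lists up to 3 genes were named by the smallest p, and further ones for their role. Alternatives covered background, offset, scaling, filter, flagged spots, the deposited table, a replicate block and each array left out; each array is its own slide, so slide could not be fitted as a block.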

Additional observations from a re-analysis of the deposited data

How the results depend on the processing

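No member probe was called under any alternative run with all 4 arrays or when any 1 array was left out. Of all probes 1 was called with background-subtracted intensities, 126 with the replicate block and between 1 and 65 without 1 array. Same-numbered rats share only a number (the correlation of their deviations was -0.07), and with the replicate block Ugt2b1 had an adjusted p of 0.076. The number of member genes at an unadjusted p under 0.05 ran from 0 to 4 without 1 array: 0 without thiamine rat 2, 4 without untreated rat 1 and 3 without untreated rat 2. Median scaling gave a GST median of 0.045, and counting shared probes a UGT median of 0.235. Without 1 array the medians ran from 0.064 to 0.266 for UGT, from 0.00356 to 0.109 for GST and from -0.038 to 0.221 for SULT. Of the 34 genes 13 kept their sign under every setting and 20 changed it without some array. With all arrays, Gsta2 was at -0.039 with median scaling, Gsto1 at 0.265 with flagged spots missing and Sult1d1 at 0.0057 as the mean of its probes. The genes that changed sign without 1 array ran from -0.168 to 0.337 (Ugt2a1), -0.147 to 0.038 (Ugt2b10), -0.467 to 0.025 (Ugt2b7), -0.072 to 0.129 (Gsta2), -0.149 to 0.045 (Gsta3), -0.471 to 0.059 (Gsta6), -0.197 to 0.088 (Gstk1), -0.045 to 0.246 (Gstm2), -0.572 to 1.09 (Gstm7), -0.432 to 0.265 (Gsto1), -0.191 to 0.399 (Gstt3), -0.074 to 0.254 (Mgst1), -0.314 to 0.156 (Mgst2), -0.120 to 0.205 (Sult1a1), -0.262 to 0.440 (Sult1b1), -0.076 to 0.683 (Sult1c2), -0.204 to 0.685 (Sult1c3), -0.156 to 0.430 (Sult1e1), -0.111 to 0.650 (Sult2a1) and -0.099 to 0.357 (Sult2a6). The cause was not tested. A group with 1 array is assumed to vary like the other. With flagged spots missing Gsta2 and Gstm1 could not be fitted, and no slide or scan block was possible.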
